A study of Rattus norvegicus with 9 samples.

Results

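Macrophage and monocyte genes were followed in rat knee tissue before and after surgery. The 34 genes of the group were taken from a list of markers, receptors, enzymes and secreted products of these cells, given by name, with earlier results of these data known, and the choice used no threshold on the values here. Of the 34, 33 were in the table of 17602 genes, and the scavenger receptor gene Marco was not analysed here. All 33 had a value above 0 in all 9 libraries and were among the 16512 genes tested. The 9 libraries were bulk RNA sequencing of 3 groups of 3, all from wild-type male Lewis rats that were young adults. Intact libraries came from the synovium around the medial meniscus of knees without surgery. Sham libraries came from the same synovium 1 week after a sham operation. pMx libraries came from the tissue that had regrown 1 week after partial medial meniscectomy (pMx), in which part of the medial meniscus was cut away. The regrown tissue was cut free at its border with the remaining meniscus and cleared of the synovium around it. The pMx and sham groups therefore differed both in the operation and in the tissue taken, and the part of each cannot be told apart. The libraries are labelled as biological replicates, but the sources used here do not say that each came from a different animal, so the p-values measure the spread between these libraries.

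Macrophages are phagocytes that clear debris and dying cells, present antigen and release growth factors and enzymes. In a healthy joint, resident macrophages line the synovial surface and sit around vessels and in fat, and many of them carry receptors such as CD163, TIM4 and VSIG4. After injury, monocytes enter from blood and become macrophages of other kinds, some with a lipid-handling program marked by TREM2, GPNMB and osteopontin. Growth factors acting on the receptor CSF1R keep both kinds alive.

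Expression is given in TPM, the length-scaled share of transcripts, the authors' unit, in which the values of each library have the same total, so a level is a share of the library's RNA and can be compared between genes because it is divided by gene length. Differences are log2 fold changes on the log2(TPM + 1) scale, with the standard error (SE), from a limma fit over all 9 libraries, and p-values were adjusted over all 16512 genes by the Benjamini-Hochberg method. A gene is said to have risen or fallen only where its adjusted p was below 0.05. Sham and pMx tissue were both taken at 1 week, so a rise, fall or step is a difference between groups. It is not a change over time. A gene that also changed by more than 1 on the log2 scale is called a differentially expressed gene (DEG). On this scale the change of a gene with few transcripts is understated. In bulk tissue, fewer cells of a type and less RNA per cell cannot be told apart.

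The libraries had 15644 to 16125 genes above 0, and the correlation of log2 values was 0.954 to 0.996 within groups and 0.902 to 0.989 between groups. Prg4, the lubricin gene of the synovial lining, was at 2646 ± 478 TPM in intact, 1315 ± 118 in sham and 1453 ± 335 in pMx libraries (SD, n = 3 each). Intact replicate 3 stood apart in skeletal muscle RNA: 6 muscle genes summed to 36466 TPM there and to 52.4 to 2424 TPM in the other 8 libraries. The RNA quality grades listed by the study rose from intact to sham to pMx, and their part in the results was not tested.

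Many of the macrophage genes rose after the sham operation, among them the genes that macrophages of all kinds share. A few genes from the list of resident and lining macrophage genes fell steeply in pMx tissue. Of the 33, 16 rose (48.5%, against 6.73% of all genes tested), 1 fell (3.03%, against 5.97% of all genes) and 16 did not pass the test. As DEGs, 6 rose, against 1.42% of all genes, and 1 fell, against 0.533%, which makes 7 of 33 against 1.96% in either direction. All sham libraries were above all intact libraries for 18 members and below them for 2, while such separation was seen in 30.6% of all genes, 14.2% upward and 16.4% downward. The median log2 fold change of the 33 was 0.55, and that of all genes was -0.02. Between pMx and sham tissue the group split. Only Cd68 and Arg1 rose, which is 6.06% of the members against 17.7% of all genes, while 10 fell, which is 30.3% against 18.9% of all genes. With 36.4% of the members called in either direction and 36.6% of all genes, the members were not called more often than genes at large in this comparison. Of the members, 1 was a DEG that rose, against 3.36% of all genes, and 4 were DEGs that fell, against 4.85%, or 5 in either direction against 8.21%. All pMx libraries were above all sham libraries for 5 members and below them for 13, and 56.1% of all genes were separated so, 27.0% upward and 29.0% downward. The 4 were Vsig4, Timd4, Cd163 and Clec10a, all from the list of resident and lining macrophage genes. The median log2 fold change was -0.12 for the members and -0.01 for all genes.

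The 33 genes together took 0.559% ± 0.145 of all TPM in intact, 1.07% ± 0.0655 in sham and 1.12% ± 0.0258 in pMx libraries (SD, n = 3 each). Lysozyme alone made up much of the sum. Without Lyz2 the share was 0.344% in intact, 0.499% in sham and 0.459% in pMx libraries.

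**Figure D1:**
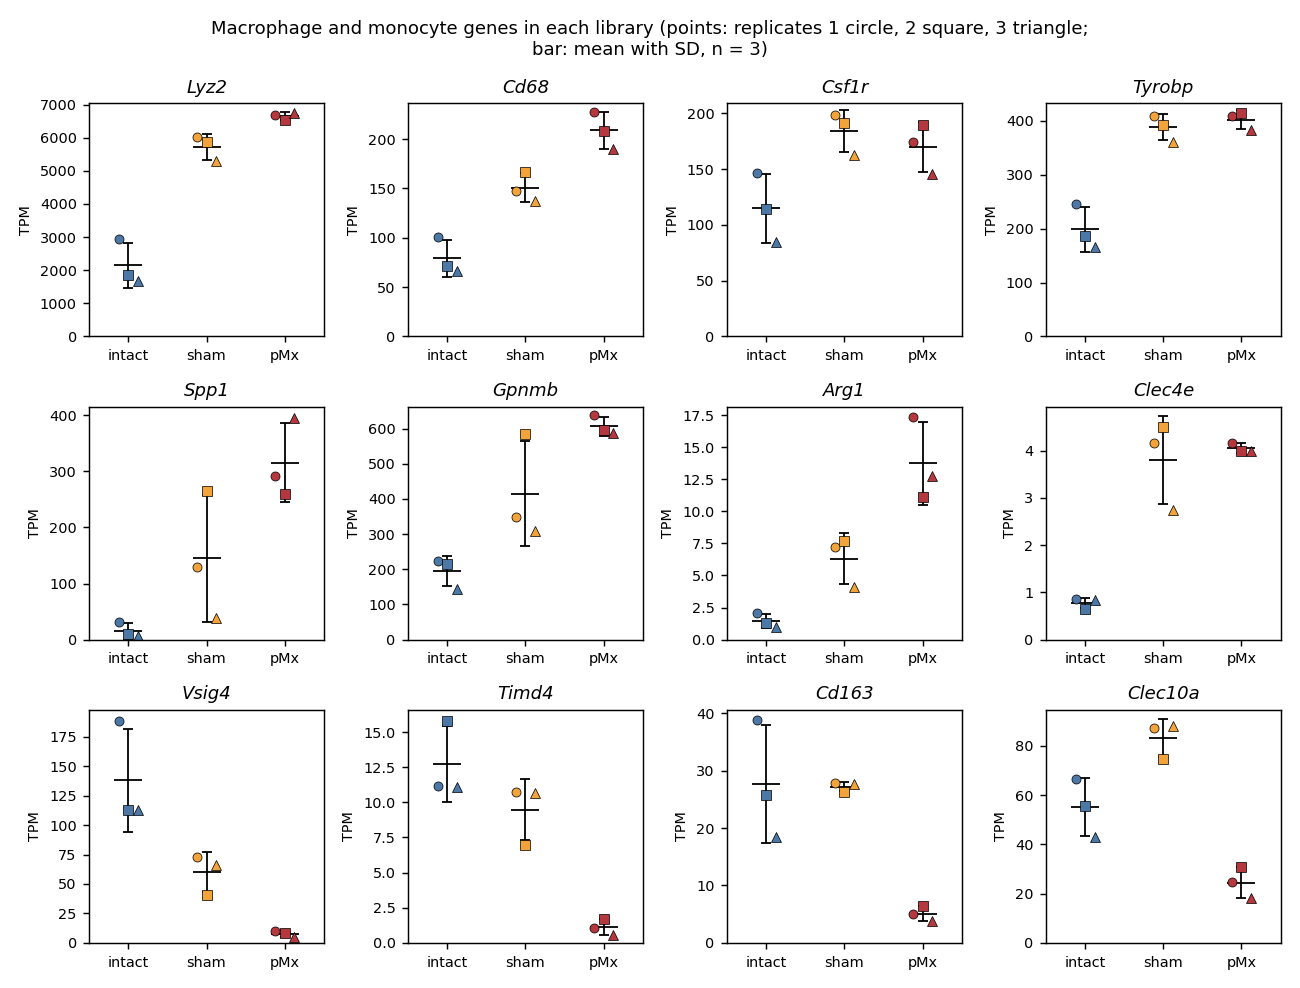
TPM of 12 members in each library, on linear axes from 0, with replicates 1, 2 and 3 as circle, square and triangle and a bar for the mean with its SD (n = 3). Lyz2, Cd68 and Tyrobp are higher in all sham than in all intact libraries, while Vsig4, Timd4, Cd163 and Clec10a are lowest in the 3 pMx libraries.

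The pan-macrophage and myeloid genes, which macrophages of all kinds share, were mostly higher in sham than in intact tissue. Of the 9, 8 rose in sham against intact, with a median log2 fold change of 0.91 (88.9%, against 6.73% of all genes), and only Cd68 rose further in pMx tissue, where the median over the 9 was 0.03. Genes shared by leukocytes, macrophages included, and T and NK cell genes were measured beside them. Of the 8 leukocyte genes, 7 rose from intact to sham (87.5%, against 6.73% of all genes). Their sums were 193 to 306 TPM in intact, 395 to 458 TPM in sham and 459 to 484 TPM in pMx. Of the 8 T and NK cell genes, 5 rose in that step (62.5%, against 6.73%). Their sums were 135 to 222, 237 to 254 and 166 to 209 TPM in the same order. Cd4 carried most of the T and NK cell sum, with means of 162.1, 223.5 and 165.1 TPM. Cd3e, of the same list, had means of 0.623, 2.39 and 1.83 TPM. The sum therefore followed Cd4 and cannot be read as a measure of T and NK cells alone. By limma Cd4 did not pass in sham against intact (adjusted p = 0.0924). No gene of either list was at 0 in all libraries of a group, and their part in the rise of the pan-macrophage genes was not tested. Lyz2, the gene of the lysozyme that digests bacterial walls, had 2934, 1839 and 1659 TPM in intact replicates 1 to 3, 6027, 5870 and 5290 TPM in sham, and 6694, 6523 and 6746 TPM in pMx libraries. All 3 sham libraries were above all 3 intact libraries, and all 3 pMx libraries above all sham libraries. Lyz2 rose by 1.46 on the log2 scale (SE 0.20, adjusted p = 0.00538) from intact to sham, and the further 0.22 (SE 0.20, adjusted p = 0.437) in pMx did not pass the test. By its mean level Lyz2 ranked 85th among all genes in intact tissue and 11th in both sham and pMx tissue.

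Cd68 encodes the lysosomal protein that the study stained to find macrophages. Its level was 101, 70.9 and 66.0 TPM in intact, 147, 167 and 138 TPM in sham, and 228, 209 and 190 TPM in pMx replicates 1 to 3. No group overlapped another. Cd68 rose by 0.94 (SE 0.15, adjusted p = 0.00975) from intact to sham and by 0.47 (SE 0.15, adjusted p = 0.0428) from sham to pMx. The second call was lost when intact replicate 2, sham replicate 1 or 3 or any pMx library was left out, with log2 fold changes of 0.41 to 0.54 over the 9 fits that left out 1 library. Markers of osteoclasts, which are close relatives of macrophages and also hold CD68, were measured beside it: 7 osteoclast genes summed to 278 to 392 TPM in intact, 616 to 697 TPM in sham and 835 to 934 TPM in pMx libraries, and none of the 7 was at 0 in all libraries of a group. Of the 7, 4 rose from intact to sham (57.1%, against 6.73% of all genes) and 2 from sham to pMx (28.6%, against 17.7%), Ctsk and Acp5, while 5 did not pass. Ctsk, the gene of cathepsin K, carried most of the sum, with means of 297, 556 and 722 TPM, and the osteoclast genes Ocstamp and Calcr stayed at or below 0.32 and 0.13 TPM. Their part in the Cd68 difference was not tested.

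Laptm5, a lysosomal membrane protein of blood cells, had 80.7, 59.9 and 48.5 TPM in intact, 126, 136 and 113 TPM in sham, and 135, 139 and 130 TPM in pMx libraries. The intact libraries were all below the others, while sham and pMx overlapped. Laptm5 rose by 1.00 (SE 0.16, adjusted p = 0.00896) from intact to sham, and from sham to pMx its log2 fold change was 0.11 (SE 0.16). Tyrobp and Fcer1g, the signaling adaptors that many activating receptors of myeloid cells share, ran in parallel. Tyrobp rose from a mean of 199 to 388 TPM and Fcer1g from 194 to 362 TPM between intact and sham, with means of 402 and 370 TPM in pMx. The ratio of Tyrobp to Fcer1g was 0.944 to 1.13 over all 9 libraries.

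Csf1r, the receptor for the growth factors CSF1 and IL-34, had a mean of 115 TPM in intact, 184 TPM in sham and 170 TPM in pMx libraries. Adgre1, which encodes the adhesion receptor F4/80, had means of 16.7, 28.2 and 25.8 TPM, and Spi1, the gene of the myeloid transcription factor PU.1, had 40.1, 59.6 and 52.4 TPM. All 3 rose from intact to sham, by 0.71, 0.75 and 0.57 on the log2 scale. These calls rested on few libraries: that of Csf1r was lost in 8 and that of Adgre1 in 8 of the 9 fits that left out 1 library, all but the fit without intact replicate 1, and that of Spi1 without intact replicate 2, sham replicate 1 or sham replicate 2. Without intact replicate 3, which had the lowest values of the 3 genes, the log2 fold change was 0.51 for Csf1r, 0.53 for Adgre1 and 0.47 for Spi1, and without sham replicate 2 it was 0.68, 0.67 and 0.56. Aif1, a calcium-binding protein of microglia and macrophages, had a log2 fold change of 0.52 (adjusted p = 0.0541) and did not pass.

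The promoter windows of Lyz2 and Cd68 are shown for contrast with those of the resident genes Cd163 and Vsig4, since the first pair was higher after the sham operation and the second was lower in pMx tissue. Each is the 250 bases before the gene's annotated start in RefSeq's GRCr8 assembly, read along the gene's strand. The capitals mark GAGGAA, the core that PU.1 and related factors prefer, or its reverse complement TTCCTC. In the Lyz2 window (chr7:54798012-54798261, minus strand) the match begins 46 bases before the start, and in the Cd68 window (chr10:54882442-54882691, minus strand) 27 bases before it. The Cd163 window (chr4:158770524-158770773, plus strand) and the Vsig4 window (chrX:65179709-65179958, minus strand) hold none.
Lyz2: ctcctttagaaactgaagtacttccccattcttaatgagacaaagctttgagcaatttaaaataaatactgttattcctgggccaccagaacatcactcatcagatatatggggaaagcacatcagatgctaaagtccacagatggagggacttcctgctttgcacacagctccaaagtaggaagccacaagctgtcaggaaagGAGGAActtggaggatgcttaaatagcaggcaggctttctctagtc
Cd68: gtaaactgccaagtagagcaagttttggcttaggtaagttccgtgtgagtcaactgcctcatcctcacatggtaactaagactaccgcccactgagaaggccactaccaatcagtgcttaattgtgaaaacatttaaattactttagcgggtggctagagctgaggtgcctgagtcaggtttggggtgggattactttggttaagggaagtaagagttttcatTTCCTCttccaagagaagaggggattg
Cd163: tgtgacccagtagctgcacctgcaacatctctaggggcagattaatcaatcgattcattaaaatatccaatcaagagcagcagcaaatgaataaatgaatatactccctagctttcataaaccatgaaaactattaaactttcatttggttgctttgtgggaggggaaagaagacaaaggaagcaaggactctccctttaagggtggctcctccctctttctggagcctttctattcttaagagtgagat
Vsig4: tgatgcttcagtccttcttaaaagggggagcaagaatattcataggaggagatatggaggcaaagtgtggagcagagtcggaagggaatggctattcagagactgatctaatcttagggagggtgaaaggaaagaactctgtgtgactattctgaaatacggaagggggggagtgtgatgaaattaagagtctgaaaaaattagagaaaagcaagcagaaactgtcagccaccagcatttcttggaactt

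Promoter windows were at hand for 22 of the 33 members. GAGGAA, searched on both strands, was in 13 of the 22 (59.1%) and in 23.3% of all 33469 promoter windows of the same length. It was in 5 of the 5 pan-macrophage members with a window (Adgre1, Cd68, Csf1r, Laptm5 and Lyz2) and in 1 of the 6 resident members, Mrc1. Of the members that rose from intact to sham, 9 of 11 held it, and of those that fell from sham to pMx, 3 of 7. The longer GAGGAAGT, which contains GAGGAA, was in 0 of the 22 and in 2.04% of all windows, and TCACGTGA, bound by MITF and related factors, was in 0 of the 22 and in 0.657% of all. TATAAA was in 2 of the 22 (Laptm5 and Spp1) and in 12.9% of all windows. A match of letters is a description of the window and not a bound site.

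The 4 members that fell most in pMx tissue were from the list of resident and lining macrophage genes. Of the 7 measured, 5 fell from sham to pMx (71.4%, against 18.9% of all genes), 4 of them as DEGs, and 2 did not pass the test, with a median log2 fold change of -1.75. Cx3cr1 was counted among the genes of monocyte recruitment and identity, not in this list. Its means were 16.8, 19.0 and 32.0 TPM in intact, sham and pMx libraries. All pMx libraries were above all sham libraries for Cx3cr1, but its log2 fold change of 0.74 (adjusted p = 0.089) did not pass the limma test. Vsig4, a complement receptor of the immunoglobulin family, had 189, 113 and 113 TPM in intact, 72.8, 40.5 and 66.3 TPM in sham, and 10.2, 8.69 and 4.76 TPM in pMx libraries. The groups did not overlap in either step. Vsig4 fell by 2.79 (SE 0.32, adjusted p = 0.000304) from sham to pMx, and its mean was 7.59-fold lower in pMx. It had also fallen by 1.19 (SE 0.32, adjusted p = 0.0461) from intact to sham, the only member to do so. That first step passed narrowly: its call was lost when intact replicate 1 or 2, pMx replicate 1 or 2 or any sham library was left out, with log2 fold changes of -1.35 to -0.93. It was lost in 13 of the 20 alternative settings, also with pseudocounts of 0.1 and 0.01, no filter, the fit on 6 libraries and robust variance.

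Timd4 encodes TIM4, a receptor for phosphatidylserine on dying cells. It had 11.2, 15.8 and 11.1 TPM in intact, 10.8, 6.97 and 10.7 TPM in sham, and 1.05, 1.73 and 0.57 TPM in pMx libraries. All pMx libraries were below all sham libraries. Timd4 fell by 2.32 (SE 0.24, adjusted p = 0.000195) from sham to pMx, while the difference between sham and intact, -0.39 (SE 0.24, adjusted p = 0.332), did not pass. Cd163, the receptor that takes up hemoglobin bound to haptoglobin, had 38.8, 25.8 and 18.4 TPM in intact, 27.8, 26.3 and 27.7 TPM in sham, and 5.03, 6.38 and 3.75 TPM in pMx libraries. The sham libraries lay inside the range of the intact libraries, and the pMx libraries were below both. Cd163 fell by 2.24 (SE 0.25, adjusted p = 0.000259) from sham to pMx.

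Clec10a, a lectin that binds galactose-type sugars, took another course. It had 66.6, 55.8 and 42.9 TPM in intact, 87.5, 74.5 and 88.03 TPM in sham, and 24.6, 30.8 and 18.1 TPM in pMx libraries. The sham libraries were above all others and the pMx libraries below all others. Its log2 fold change from intact to sham was 0.61 (SE 0.20, adjusted p = 0.0896), and from sham to pMx it fell by 1.75 (SE 0.20, adjusted p = 0.000326). The calls of Vsig4, Timd4, Cd163 and Clec10a in pMx against sham held in all 20 alternative settings run.

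The remaining 3 genes of this list were not DEGs. Folr2, a folate receptor of resident macrophages, fell by 0.70 (SE 0.16, adjusted p = 0.00878) from a mean of 245 to 150 TPM between sham and pMx. Mrc1, the mannose receptor, had means of 54.4, 74.7 and 78.7 TPM in intact, sham and pMx, and its log2 fold change in pMx against sham was 0.08 (95% interval -0.36 to 0.51). Maf, a transcription factor of resident macrophages that fibroblasts also express, had means of 59.6, 75.1 and 81.8 TPM and rose by 0.33 (SE 0.07, adjusted p = 0.024) from intact to sham, a call lost without intact replicate 2 or any 1 sham library, with log2 fold changes of 0.28 to 0.41. Its log2 fold change in pMx against sham was 0.12 (95% interval -0.05 to 0.29). The differences between Folr2 and these genes were not tested.

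Marker genes of adipocytes and mast cells were also lower in pMx than in sham tissue. From sham to pMx, 5 of 5 adipocyte genes and 6 of 7 mast cell genes fell (100% and 85.7%, against 18.9% of all genes). A sum of 5 adipocyte genes was 154 to 1442 TPM in intact, 936 to 1235 TPM in sham and 24.1 to 40.7 TPM in pMx libraries, and a sum of 7 mast cell genes was 40.8 to 106, 117 to 195 and 9.67 to 13 TPM. None of these 12 genes was at 0 in all libraries of a group. A sum of 9 fibroblast genes was 9423 to 13180, 16133 to 18564 and 39863 to 43514 TPM in the same order. Of these 9, 5 rose from sham to pMx (55.6%, against 17.7% of all genes), 1 fell and 3 did not pass. The collagen genes Col1a1 and Col1a2 were the largest in pMx, with means of 15669 and 14118 TPM there and 4501 and 4174 TPM in sham. Dcn, of the same list, had a mean of 4683 TPM in sham and 2441 TPM in pMx. The part of these changes in the fall of the resident genes was not tested.

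**Figure D2:**
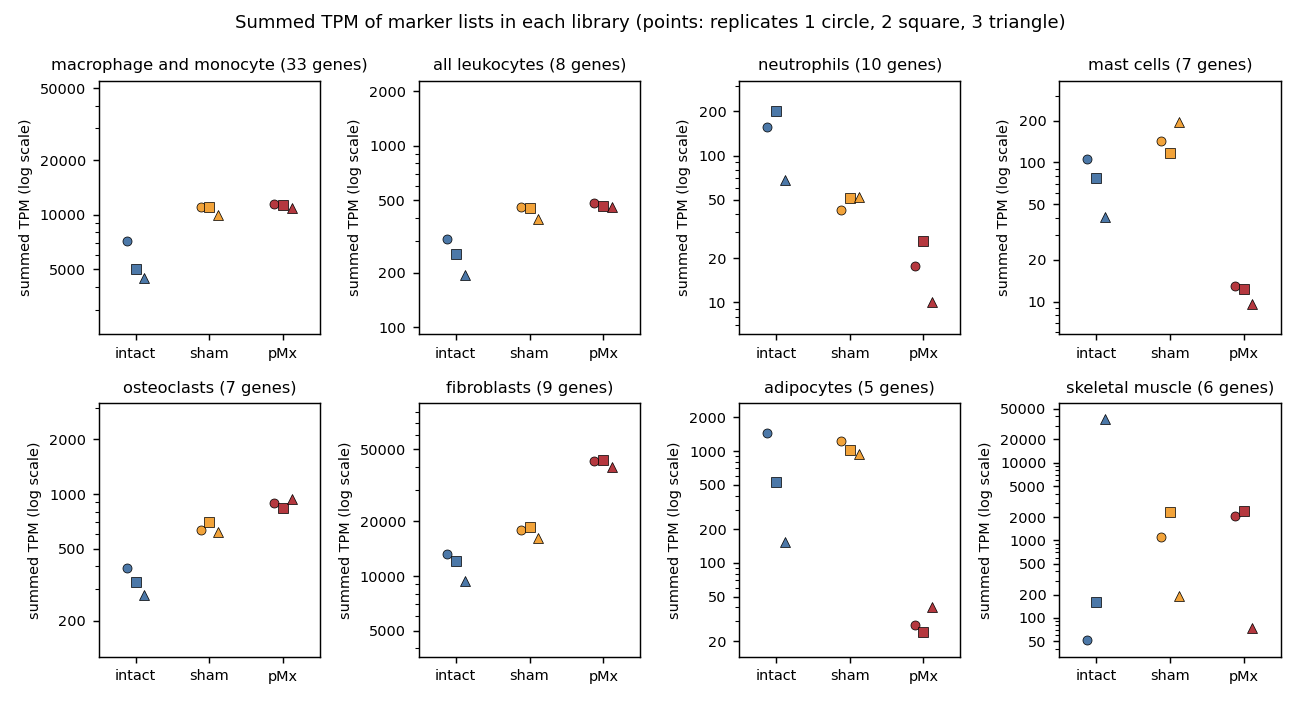
Summed TPM of the 33 members and of 7 marker lists in each library, on log scales, with replicates 1, 2 and 3 of the intact, sham and pMx groups as circle, square and triangle. Adipocyte, mast cell and neutrophil sums are lowest in the 3 pMx libraries, fibroblast and osteoclast sums are highest there, and the muscle sum stands out in intact replicate 3.

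Set against Csf1r within each library, 5 genes of the resident list, Vsig4, Timd4, Cd163, Clec10a and Folr2, had lower ratios in all pMx than in all sham libraries, while Mrc1 and Maf did not. Mean ratios are given with the SD over 3 libraries and without a test. The ratio of Vsig4 to Csf1r was 1.20 ± 0.19 in intact, 0.329 ± 0.103 in sham and 0.0457 ± 0.0130 in pMx libraries. That of Timd4 was 0.115, 0.0521 and 0.00635, and that of Cd163 was 0.237, 0.149 and 0.0294. No groups overlapped for these 3 ratios. The ratio of Folr2 was 1.57 in intact, 1.34 in sham and 0.888 in pMx. Clec10a kept nearly the same ratio in intact (0.484) and sham (0.457) and had 0.143 in pMx. Mrc1 was at 0.399 to 0.482 over all 9 libraries, Adgre1 at 0.132 to 0.167 and Trem2 at 0.628 to 0.810. All pMx libraries, at 0.445 to 0.479, were above all sham libraries for Mrc1. The ratio of Cd68 was 0.697 ± 0.079 in intact, 0.819 ± 0.069 in sham and 1.24 ± 0.12 in pMx libraries.

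**Figure D3:**
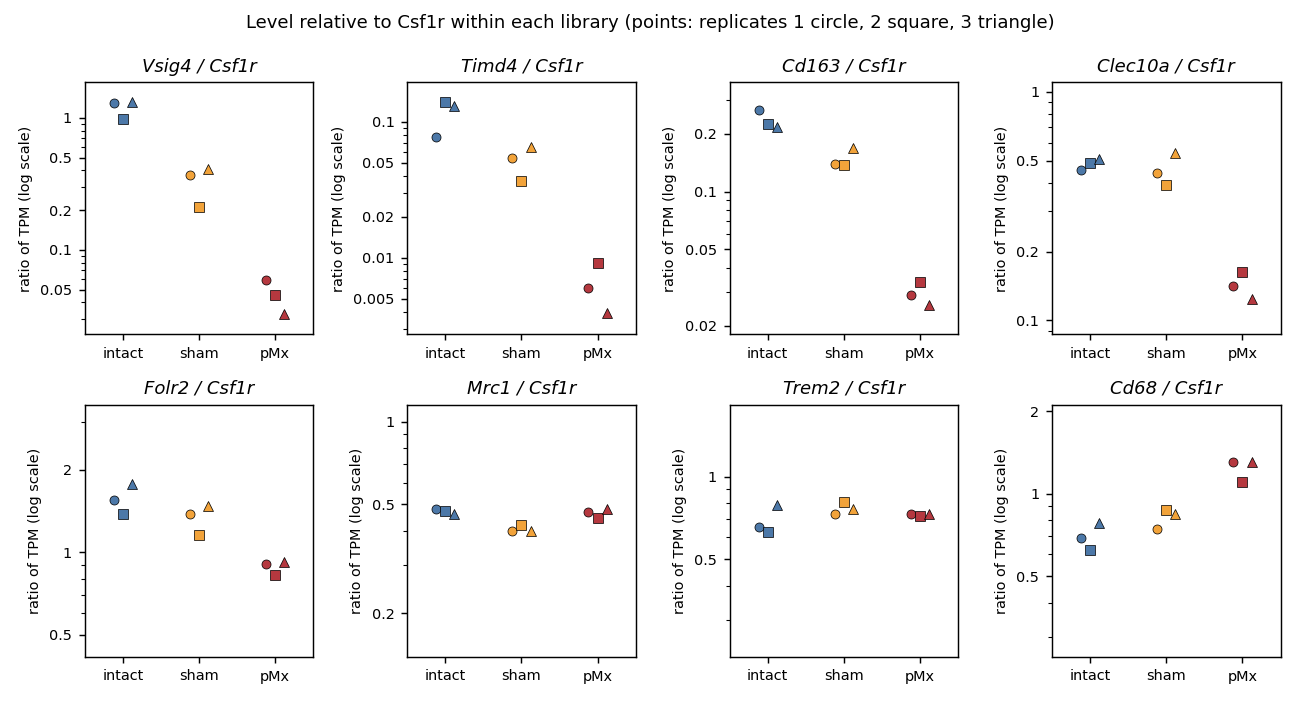
TPM of 8 members divided by the TPM of Csf1r in the same library, on log scales, for intact, sham and pMx libraries, with replicates 1, 2 and 3 as circle, square and triangle. Vsig4, Timd4 and Cd163 step down from intact to sham to pMx, Clec10a and Folr2 are lowest in pMx, and Cd68 is highest in pMx. Trem2 overlaps between the groups, and Mrc1 is a little higher in all pMx than in all sham libraries.

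The 3 chains of complement C1q, which macrophages make and which starts the classical complement pathway, were among the most abundant members. C1qa had 630, 386 and 391 TPM in intact, 650, 621 and 706 TPM in sham, and 568, 597 and 403 TPM in pMx libraries. C1qb fell by 0.67 (SE 0.20, adjusted p = 0.0321) from a mean of 454 to 291 TPM between sham and pMx. C1qc fell by 0.73 (SE 0.19, adjusted p = 0.0164) from 425 to 260 TPM. C1qa itself, at -0.35 (SE 0.21, adjusted p = 0.227), did not pass, although its pMx libraries were all below its sham libraries. The call of C1qb was lost without pMx replicate 3 or any 1 sham library, and that of C1qc without pMx replicate 3 or sham replicate 3. Without pMx replicate 3, which had the lowest values, the log2 fold changes were -0.45 and -0.56. Against intact, 0 of the 3 chains passed the limma test in sham or in pMx tissue, and only C1qa in sham had an unadjusted p below 0.05, at 0.0347.

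The chains make up one protein in equal numbers, yet their shares of the summed C1q TPM shifted. C1qa took 41.3%, 37.8% and 40.2% in intact, 42.6%, 42.0% and 43.9% in sham, and 48.9%, 48.0% and 49.5% in pMx libraries. The groups did not overlap. The mean shares of C1qc in the same order were 29.4%, 27.7% and 24.3%. These shares are a description, with no test of their difference.

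**Figure D4:**
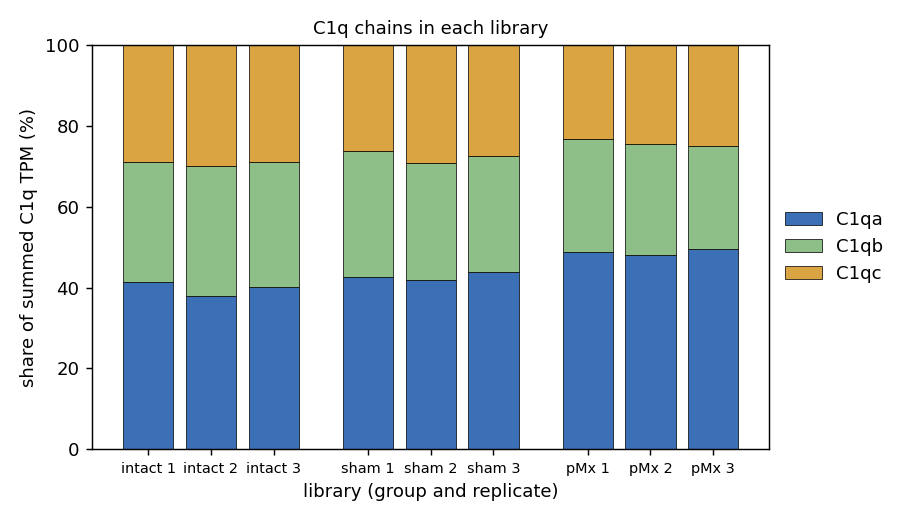
Stacked bars of the shares of the summed C1q TPM taken by C1qa, C1qb and C1qc, in percent, with 1 bar for each of the 9 libraries. The C1qa share is 37.8% to 41.3% in intact and 48.0% to 49.5% in pMx libraries.

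Of the 4 genes of lipid-associated and scavenging macrophages, 3 rose after the sham operation, against 6.73% of all genes, and in pMx tissue 0 of the 4 passed the limma test against sham, with 1, Gpnmb, at an unadjusted p below 0.05. Spp1 encodes osteopontin, a secreted phosphoprotein that osteoclasts and mesenchymal cells also make. It had 32.3, 9.56 and 6.19 TPM in intact, 130, 265 and 38.9 TPM in sham, and 292, 260 and 396 TPM in pMx libraries. The intact libraries were below all others, and the sham libraries differed widely, with sham replicate 2 above the lowest pMx library. Spp1 rose by 3.04 (SE 0.73, adjusted p = 0.0317) from intact to sham, and the 1.48 (SE 0.73, adjusted p = 0.149) from sham to pMx did not pass. The first call was lost in 7 of the 9 fits that left out 1 library, all but those without intact replicate 1 or sham replicate 3, and without sham replicate 2 the log2 fold change was 2.41. From intact to pMx it rose by 4.52 (SE 0.73, adjusted p = 0.000968).

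Gpnmb, a glycoprotein of lysosomes and of lipid-laden macrophages, had 225, 216 and 145 TPM in intact, 348, 586 and 310 TPM in sham, and 638, 595 and 587 TPM in pMx libraries. The groups did not overlap, with the sham replicate that was highest for Spp1 just below the pMx libraries. Gpnmb rose by 1.05 (SE 0.24, adjusted p = 0.0287) from intact to sham. In pMx against sham its log2 fold change was 0.60 (SE 0.24, adjusted p = 0.0855), and without sham replicate 2 it was 0.88 and passed. The rise from intact was lost without intact replicate 2, sham replicate 1 or sham replicate 2, and was 0.77 without the last. The osteoclast marker sum was highest in sham replicate 2 among the sham libraries, at 697 TPM, and its part in the values of Spp1 and Gpnmb was not tested.

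Trem2, a lipid-sensing receptor that signals through the Tyrobp adaptor, rose by 0.86 (SE 0.15, adjusted p = 0.0118) from a mean of 77.8 to 141 TPM between intact and sham, and had 123 TPM in pMx. Its call was lost without sham replicate 2, with 0.80. Msr1, a scavenger receptor for modified lipoproteins, had means of 43.5, 67.3 and 69.8 TPM, and its 0.66 from intact to sham (adjusted p = 0.0602) did not pass.

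**Figure D5:**
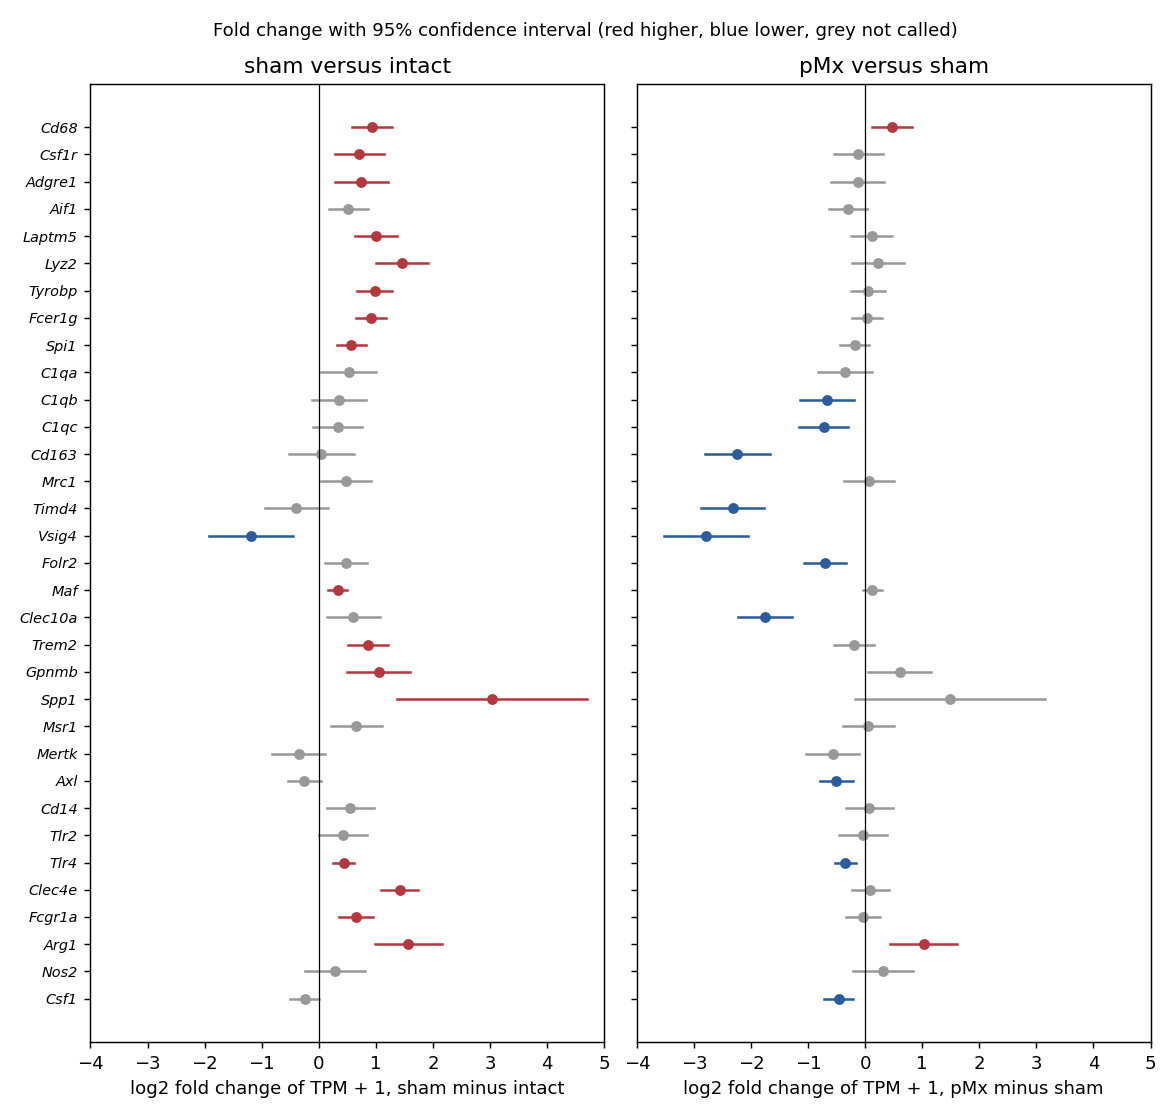
Log2 fold changes of the 33 members with 95% intervals, for sham against intact and for pMx against sham, ordered by role group, in red where a gene was higher and in blue where it was lower at an adjusted p below 0.05, and in grey otherwise. Most members lie right of 0 in the first comparison. In the second, Vsig4, Timd4, Cd163 and Clec10a, from the list of resident and lining genes, lie between -2.79 and -1.75, and Arg1 lies at 1.03.

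The arginine enzymes were among the least abundant members. Arg1, the arginase that turns arginine into ornithine and urea, had 2.08, 1.29 and 0.97 TPM in intact, 7.22, 7.68 and 4.07 TPM in sham, and 17.3, 11.2 and 12.7 TPM in pMx libraries. The groups did not overlap. Arg1 rose by 1.57 (SE 0.26, adjusted p = 0.00972) from intact to sham and by 1.03 (SE 0.26, adjusted p = 0.0142) from sham to pMx. The second call was lost without pMx replicate 1, where the log2 fold change was 0.86. Nos2, the inducible synthase that makes nitric oxide from the same amino acid, stayed low, at 0.76 to 0.80 TPM in intact, 0.57 to 2.14 TPM in sham and 1.31 to 2.16 TPM in pMx libraries. It did not pass in any comparison, and its adjusted p in pMx against intact was 0.0559.

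Among innate sensors and Fc receptors, 3 of 5 rose from intact to sham (60.0%, against 6.73% of all genes), and 1 fell from sham to pMx (20.0%, near the 18.9% of all genes). Clec4e encodes Mincle, a lectin that senses microbial glycolipids and dead cells. It had 0.85, 0.65 and 0.83 TPM in intact, 4.15, 4.50 and 2.75 TPM in sham, and 4.17, 3.99 and 4 TPM in pMx libraries. All intact libraries were below all others, and sham and pMx overlapped. Clec4e rose by 1.42 (SE 0.14, adjusted p = 0.00239) from intact to sham, and the difference between pMx and sham was 0.09 (95% interval -0.23 to 0.42). Fcgr1a, the high-affinity receptor for IgG, rose by 0.66 (SE 0.13, adjusted p = 0.017) from a mean of 35.4 to 55.9 TPM and had 54.2 TPM in pMx, and its call was lost without intact replicate 2, sham replicate 1 or sham replicate 2, with log2 fold changes of 0.57 to 0.81 over the 9 fits.

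Tlr4, the receptor for bacterial lipopolysaccharide, was highest in sham tissue. It rose by 0.44 (SE 0.08, adjusted p = 0.0144) in sham against intact and fell by 0.35 (SE 0.08, adjusted p = 0.0102) in pMx against sham. Its means were 10.6, 14.7 and 11.4 TPM, and the sham libraries, at 14.1 to 15.4 TPM, were above all others. The rise was lost without sham replicate 2, with log2 fold changes of 0.39 to 0.48 over the 9 fits that left out 1 library. Cd14, its co-receptor, had means of 91.7, 133 and 139 TPM, and Tlr2, the receptor for bacterial lipoproteins, had 50.2, 67.0 and 65.1 TPM. Neither passed in sham against intact or in pMx against sham.

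Of the pair of receptors for dying cells, Axl fell from sham to pMx and Mertk narrowly missed the threshold. Axl, a receptor tyrosine kinase that binds GAS6 and is also expressed by fibroblasts, had a mean of 255 TPM in intact, 213 TPM in sham and 150 TPM in pMx libraries and fell by 0.51 (SE 0.12, adjusted p = 0.013) from sham to pMx. That call was lost without pMx replicate 1, with log2 fold changes of -0.58 to -0.46 over the 9 fits. Mertk, its relative on macrophages, had means of 12.8, 9.54 and 6.14 TPM. Its -0.57 in pMx against sham (SE 0.20, adjusted p = 0.0567) missed the threshold, although the pMx libraries were all below the sham libraries, and it passed in 10 of the 20 alternative settings. Against intact, Mertk fell by 0.92 (SE 0.20, adjusted p = 0.0052) in pMx.

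Csf1, the growth factor for CSF1R that fibroblasts make, had 85.7, 81.9 and 62.1 TPM in intact, 66.3, 62.3 and 63.2 TPM in sham, and 46.7, 43.7 and 47.7 TPM in pMx libraries. The pMx libraries were below all others. Csf1 fell by 0.47 (SE 0.11, adjusted p = 0.0114) from sham to pMx. Il34, which encodes the other ligand of CSF1R and is named for that role outside the naming rule, fell by 0.64 (SE 0.09, adjusted p = 0.000902), from a mean of 35.2 to 22.3 TPM.

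Against intact synovium, pMx tissue had 18 members that rose (54.5%, against 23.4% of all genes) and 7 that fell (21.2%, against 27.1%), while 8 did not pass. That is 75.8% called in either direction, against 50.6% of all genes. The groups did not overlap for 17 members that were higher and 7 that were lower in pMx, against 26.9% and 30.6% of all genes and 57.5% in either direction. This comparison shares its libraries with the other two, so its values follow from theirs. As DEGs, 8 rose, against 6.4% of all genes, and 4 fell, against 7.89%, with 14.3% of all genes in either direction. The DEGs that rose were Cd68, Laptm5, Lyz2, Tyrobp, Gpnmb, Spp1, Clec4e and Arg1, and those that fell were Vsig4, Timd4, Cd163 and Clec10a. The mean of Vsig4 was 17.5-fold lower and that of Timd4 11.4-fold lower in pMx than in intact tissue, and the mean of Spp1 was 19.7-fold and that of Arg1 9.50-fold higher. The median log2 fold change was 0.56 for the members and -0.03 for all genes.

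The count of calls in sham against intact depended on single libraries, although those of Lyz2, Cd68, Laptm5, Tyrobp, Fcer1g, Clec4e and Arg1 held in all 20 alternative settings. It was 17 with all libraries, 9 without intact replicate 2, 9 without sham replicate 1 and 7 without sham replicate 2, and the count of DEGs, 7 with all libraries, was 3, 3 and 3 without those libraries and 4 without intact replicate 3. In pMx against sham the count stayed at 9 to 14 when 1 library was left out. Without intact replicate 3, the library with the muscle RNA, it was 14 in pMx against sham, where it was 12 with all libraries, and 17 in sham against intact.

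Other genes of resident and perivascular macrophages, outside the group of 34, were measured for comparison. Of 8, 0 rose and 3 fell in pMx against sham by limma (37.5% called, against 36.6% of all genes), and the 3 were all DEGs (37.5%, against 4.85% that fell as DEGs). Lyve1, the hyaluronan receptor of perivascular macrophages and lymphatic vessels, fell by 2.26 (adjusted p = 0.000152) from a mean of 21.3 to 3.69 TPM. F13a1, the gene of coagulation factor XIII that such macrophages express, fell by 1.82 (adjusted p = 0.000229) from 275 to 76.1 TPM. It was also lower in sham than in intact tissue, by 0.81 (adjusted p = 0.0333), where its intact mean was 479.5 TPM. That call was lost in 7 of the 9 fits that left out 1 library. In sham against intact, 3 of the 8 rose and 1 fell (50.0% called, against 12.7% of all genes). Slco2b1, an organic anion transporter, fell by 1.42 (adjusted p = 0.00109) from 31.6 to 11.3 TPM.

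Among 11 genes of monocyte recruitment and identity, 3 rose and 1 fell in sham against intact, and 1 rose and 3 fell in pMx against sham. That is 36.4% called in each comparison, against 12.7% of all genes in the first and 36.6% in the second, so in the second the share was at the background. Ccr2, the chemokine receptor that brings monocytes out of the marrow, had 10.9, 7.44 and 3.66 TPM in intact, 18.0, 15.4 and 18.3 TPM in sham, and 7.23, 10.3 and 5.78 TPM in pMx libraries. The sham libraries were above all others. Ccr2 rose by 1.23 (SE 0.32, adjusted p = 0.0416) in sham against intact and fell by 1.08 (SE 0.32, adjusted p = 0.0285) in pMx against sham. The rise was lost in 7 of the 9 fits that left out 1 library, all but those without intact replicate 1 or 3, with log2 fold changes of 0.86 to 1.54. The fall was lost without pMx replicate 1 or 3 or any 1 sham library, with -1.28 to -0.915. Plac8, a gene of monocytes and other leukocytes, fell by 1.79 (adjusted p = 1.97e-05) in pMx against sham. Vcan, the gene of the proteoglycan versican, which monocytes and fibroblasts both make, rose in both steps, by 1.36 and 1.48. Among 8 macrophage transcription factors, Runx1 rose by 1.44 and Nr1h3, the lipid sensor LXR alpha, fell by 1.35 in pMx against sham, and 5 of the 8 did not pass (37.5% called, near the 36.6% of all genes). The fibroblast sums given above were also higher and the adipocyte sums lower in pMx, and their part in Runx1 and Nr1h3 was not tested.

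Among 12 other lipid-associated genes, 4 fell and 1 rose in pMx against sham (41.7% called, near the 36.6% of all genes). The DEGs were Fabp4, at -3.32, Cd36, at -3.01, and Lpl, at -2.29, which bind, take up and release fatty acids and which adipocytes express too. The adipocyte sums given above were also lower in pMx, and their part was not tested. Of 12 adaptors, kinases and receptors that signal beside Tyrobp and Fcer1g, 7 rose and 0 fell in sham against intact (58.3% higher, against 6.73% of all genes). Clec4d, the lectin that pairs with Mincle, rose by 1.90, Hcst, the adaptor DAP10, by 1.21, and Clec7a, the beta-glucan receptor dectin-1, by 1.10, while in pMx against sham only Trem3 was called, at -2.69. Of 7 ligands and partners of the receptors for dying cells, 1 rose from intact to sham (14.3%, against 6.73% of all genes) and 0 of 7 passed in pMx against sham by limma, with only Gas6 and Stab1 at an unadjusted p below 0.05.

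Of 10 partners of the Toll-like receptors, 4 rose from intact to sham (40.0%, against 6.73% of all genes) and 2 from sham to pMx (20.0%, near the 17.7% of all genes). Lbp, the lipopolysaccharide-binding protein, rose by 1.20 (adjusted p = 0.000329) from a mean of 323 to 744 TPM in pMx against sham. Of 9 inflammatory products, 2 rose in pMx against sham (22.2%, near the 17.7% of all genes): Ptgs2, the cyclooxygenase that makes prostaglandins, by 2.77 from a mean of 0.96 to 13.3 TPM, and the chemokine Ccl3 by 1.31 from 3.70 to 10.7 TPM. Of 5 genes of arginine and polyamine metabolism, 2 rose and 2 fell (80.0% called, against 36.6% of all genes), with Arg2, the mitochondrial arginase, up by 1.01 from 0.37 to 1.73 TPM. Of 5 genes of alternative activation that were tested, 0 rose and 2 fell by limma (40.0% called, near the 36.6% of all genes), neither as a DEG.

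Itgax, the integrin CD11c of dendritic cells and of some macrophages, had 1.85, 2.66 and 1.84 TPM in intact, 6.67, 12.2 and 3.48 TPM in sham, and 33.1, 36.8 and 32.98 TPM in pMx libraries. The groups did not overlap. It rose by 1.31 (SE 0.33, adjusted p = 0.0369) and by 2.20 (SE 0.33, adjusted p = 0.00115) in the same steps. The first call was lost in 8 of the 9 fits that left out 1 library, all but the fit without sham replicate 3, with log2 fold changes of 0.92 to 1.70, and the second was kept in all 9. The 9 dendritic cell markers, Itgax among them, summed to 44.1 to 57.4 TPM in sham and 65.8 to 72.8 TPM in pMx libraries. Of the 9, Itgax alone rose in pMx against sham and 4 fell (44.4%, against 18.9% of all genes), namely Clec9a, Xcr1, Batf3 and Irf4, which are named because they were the 4. The 10 neutrophil markers summed to 68.5 to 202 TPM in intact, 42.6 to 52.1 TPM in sham and 10.1 to 26.3 TPM in pMx libraries. By limma only Mpo of the 10 fell in pMx against sham, at -3.57, and 9 did not pass, where 18.9% of all genes fell. Of the 10, 2, Elane and Ltf, were listed at 0 in all pMx libraries. Elane was already at or below 0.19 TPM in sham, and Ltf at or below 0.04 TPM in every library, so these zeros show little about pMx tissue.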

How the data were processed

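Bulk RNA of 9 libraries was measured by sequencing of poly(A) RNA. The authors deposited 1 table of TPM (transcripts scaled by length and library total) per gene and library, and every column of per-sample values was used (0 unused). The submitters' processing notes name HISAT2 2.0.4 and the rat assembly mRatBN7.2, and the study gives TPM from the sequencing provider's data-mining system. The counter and annotation are not given in the sources used here. TPM keeps no read depth, so the depth is unknown and no counting interval is given. The number of libraries, 3 a group, limits the precision.

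Groups came from the sample labels. Genes above 0 TPM in at least 3 libraries were kept, transformed to log2(TPM + 1) and fitted with limma 3.58.1 in R 4.3.3 with 1 mean per group over all 9 libraries and a trended prior variance. P-values were adjusted by the Benjamini-Hochberg method over all genes tested. As in the study, DEGs needed a log2 fold change beyond 1 in size beside the adjusted p below 0.05. Only these cut-offs are shared: the study does not name its test, and its counts of DEGs differ from those here. The script was tested on simulated data with 200 changed genes.

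All members were named, with library values for the DEGs of pMx against sham or sham against intact and for Cd68. Genes outside the group were named where they were DEGs, at most 4 per list by size of change. The members and lists were chosen with earlier results of these data known. Library values for C1qa, Csf1, Ccr2 and Itgax were added after their values were seen. So were the names of Il34, Gas6, Stab1, Prg4, Ctsk, Acp5, Ocstamp, Calcr, Cd4, Cd3e, Cx3cr1, Col1a1, Col1a2, Dcn and 4 dendritic cell genes. Gene IDs of 33 of 33 members matched RefSeq's GRCr8 table, and 22 of 33 had a promoter window there, of which the 250 bases before the start were used. No coordinates were converted between assemblies. Alternatives were pseudocounts of 0.1 and 0.01, a mean of at least 1 TPM or no filter, median-of-ratios and quantile scaling, a fit on 6 libraries, untrended or robust variance, a replicate block, an adjusted p below 0.01, and leaving out each library.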

Additional observations from a re-analysis of the deposited data

How the results depend on the processing

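The direction of all 33 members in sham against intact and in pMx against intact was kept under every alternative run, except Cd163 in sham against intact, which was -0.21 without intact replicate 3 and 0.04 with all libraries. Over the fits that left out 1 library, Cd163 in sham against intact ran from -0.21 to 0.31. In pMx against sham, members that did not pass the test changed sign. Under quantile scaling Tyrobp was -0.0305 and Fcer1g -0.0415. With 1 library left out, Fcer1g ran from -0.0249 to 0.0866, Mrc1 from -0.0204 to 0.158, Cd14 from -0.0373 to 0.204 and Clec4e from -0.075 to 0.201, each lowest without sham replicate 3. In the same way Msr1 ran from -0.0322 without sham replicate 2 to 0.125, Tlr2 from -0.129 to 0.101 without sham replicate 1, and Fcgr1a from -0.0931 to 0.0405 without sham replicate 1. The cause was not tested.

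Counts of members with an adjusted p below 0.05 in sham against intact, 17 as reported, were 8 in the fit on the 6 libraries of the comparison, where fewer samples set the variance, 7 at an adjusted p below 0.01, and 7 to 23 when 1 library was left out. DEGs there, 7 as reported, were 4, 4 and 3 to 10 in the same order. In pMx against sham the count of 12 was 5 at an adjusted p below 0.01, 9 to 14 when 1 library was left out, and the 5 DEGs were 4 to 5. In pMx against intact, 25 members were called, 20 to 27 when 1 library was left out, and the 12 DEGs were 11 to 13.

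The groups share replicate numbers, and deviations of libraries with the same number correlated at 0.0346 to 0.485 in pMx against sham, at -0.494 to 0.0016 in sham against intact and at -0.664 to -0.378 in pMx against intact. The numbers were not taken to pair the libraries. The values in pMx against sham were all positive, so they do not exclude a pairing there. With the replicate block, 13, 20 and 26 members were called in pMx against sham, sham against intact and pMx against intact, and 5, 7 and 12 were DEGs. Median-of-ratios scaling moved a library by -0.08 to 0.07 on the log2 scale. The TPM values carry no depth, so the counting error behind members near 1 TPM, such as Nos2 and Timd4 in pMx tissue, is unknown.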
